A study of Homo sapiens with 4 samples.

Results

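The genes for the platelet-derived growth factor (PDGF) receptors and ligands and for the receptor KIT and its ligand were followed through the first days of blood differentiation in human cells. The 8 genes are PDGFRA, PDGFRB, PDGFA, PDGFB, PDGFC, PDGFD, KIT and KITLG. They were chosen by name and found by gene ID, and all 8 were present among the 19390 gene IDs listed in any library. The cells were of the established embryonic stem cell line H1, labelled wild type. One group is undifferentiated H1 cells (day 0). The others were taken on days 2, 3 and 4. For the first 2 days the medium held activin A (40 ng/ml) plus BMP4 (50 ng/ml). For the next 2 days it held VEGF (40 ng/ml) plus bFGF (50 ng/ml). Both steps used custom mTeSR1 medium. Each day is 1 library, and no time-matched culture kept without the factors is among the 4 samples, so day and treatment cannot be told apart. With no replicates, no test was possible and every interval below covers counting error only.

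PDGF receptors and KIT are receptor tyrosine kinases of one family, in which a dimeric ligand joins a pair of receptor chains and switches on their kinases. PDGF-A and PDGF-C act mainly through PDGFRA, PDGF-D mainly through PDGFRB, and PDGF-B through both. PDGFRA marks early mesoderm of several kinds and also primitive endoderm, PDGFRB marks the mural cells that surround vessels, and KIT marks blood stem and progenitor cells, mast cells, germ cells and melanocytes. KITLG encodes stem cell factor, the only known ligand of KIT.

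Libraries held 5.04 to 5.49 M expected counts, so 1 count was worth 0.182 to 0.196 CPM (counts scaled to a common library size, with TMM factors on the totals). The 10 pluripotent cell markers summed to 10908, 4044, 2883 and 2198 CPM on days 0, 2, 3 and 4, each day lower than the one before. SOX2 stood at 286 CPM on day 0 and at 0.785 to 1.27 CPM later, and PRDM14, a regulator of the pluripotent state, at 86.9 CPM on day 0 and at 2.16 to 5.99 CPM later. The rule of size asked for a gap of 1 or more in log2(CPM + 1) between 2 libraries, called 2-fold here, and for 1 CPM or more in either. A gap of 2 is called 4-fold. All 8 genes passed that minimum in every comparison, since the lowest value was 1.55 CPM.

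Between day 0 and day 2, both PDGF receptor genes, PDGFC and KITLG became more abundant while PDGFA became less so, and KIT stayed within 2-fold. Among the 8, PDGFRA, PDGFRB, PDGFC and KITLG (4 genes) passed the 2-fold rule upward at day 2, against 12.9% of the 15379 genes measured, and 1 gene, PDGFA, passed it downward, against 8.81%. At 4-fold the counts were 2 higher, against 4.63% of all genes, and 1 lower, against 1.93%. The median log2 difference was 0.73 over the 8 genes and -0.000898 over all genes. With 8 genes picked as a family, these shares describe the set and give it no test.

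**Figure D1:**
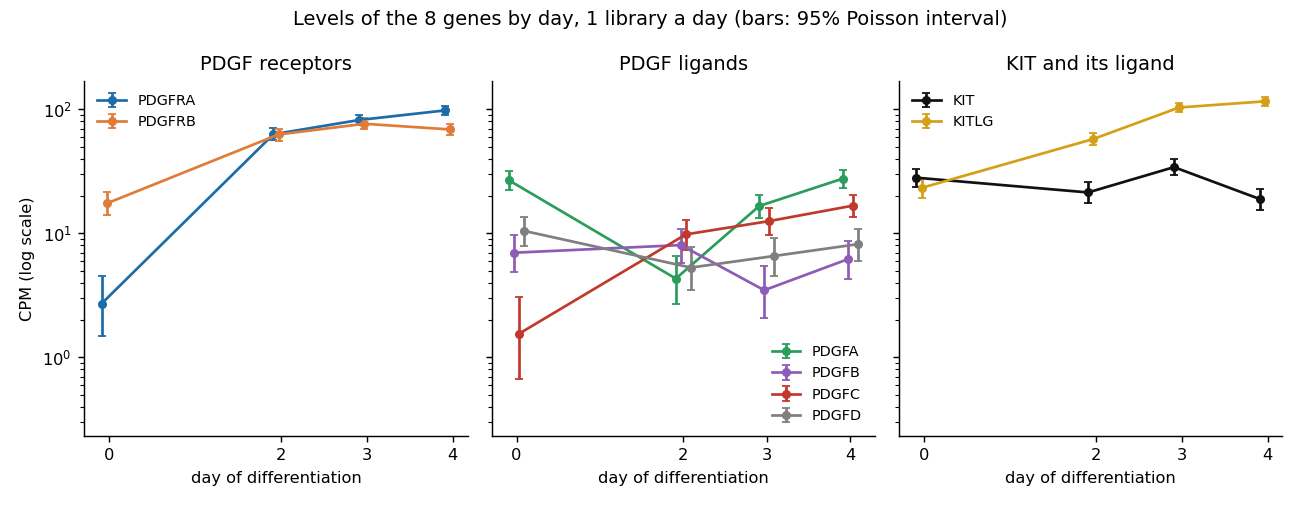
CPM (log axis) of the 8 genes against the day of differentiation, 1 library a day, with bars for the 95% Poisson interval. PDGFRA and PDGFRB are both drawn at about 63 CPM on day 2, on a scale that does not correct for transcript length. PDGFA dips to 4.32 CPM on day 2 and returns to 27.6 CPM. KITLG climbs to 116 CPM while KIT stays between 18.9 and 34.2 CPM.

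PDGFRA (gene ID 5156, chromosome 4) encodes the alpha receptor, which binds PDGF-A, PDGF-B and PDGF-C chains. It measured 2.72, 63.0, 82.1 and 98.1 CPM on days 0, 2, 3 and 4, from 14, 321, 425 and 540 counts. The day 0 library was the low one by far, and each later day was higher than the one before. At day 2 the gene was 23.2-fold higher than at day 0 (95% counting interval 13.6 to 42.9). The rest of the course added 1.56-fold between days 4 and 2 (1.36 to 1.80), which is beyond counting error but under 2-fold. At day 4 it stood 36.1-fold above day 0 (21.4 to 66.6). In FPKM, which corrects for transcript length, it measured 0.42 on day 0, above 14.3% of listed genes, and 14.8 on day 4, above 71.8%.

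PDGFRB (gene ID 5159, chromosome 5) encodes the beta receptor, which binds PDGF-B and PDGF-D chains. It measured 17.5, 62.8, 76.5 and 68.9 CPM on days 0, 2, 3 and 4, from 90, 320, 396 and 379 counts. It was thus already present at day 0, and days 2, 3 and 4 lay close to each other. It was 3.60-fold higher at day 2 than at day 0 (2.84 to 4.60). Day 3 was 1.22-fold above day 2 (1.05 to 1.42), and day 4 did not differ from day 2 beyond counting error, with a ratio of 1.10 (0.943 to 1.28).

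On the FPKM scale the balance of the 2 receptor genes changed. The PDGFRA level was 0.135 of the PDGFRB level on day 0 (0.0711 to 0.239), 0.872 on day 2 (0.745 to 1.02), 0.933 on day 3 (0.812 to 1.07) and 1.24 on day 4 (1.08 to 1.42). The levels of the 2 genes did not differ beyond counting error on days 2 and 3, with PDGFRB the more abundant on day 0 and PDGFRA on day 4. In bulk RNA, more cells with a transcript and more transcript per cell cannot be told apart.

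Promoter sequence from RefSeq (GRCh38.p14) is shown for the 3 genes that passed the 2-fold rule upward at day 2 and have an entry, because they move together over that step, and for KIT, which did not follow them. Of the 8 genes, 6 had an entry, PDGFB and PDGFC not among them. Each line is the 250 bases before an annotated start, read 5′ to 3′ on the gene's strand. The windows are chr4:54229043-54229292 (plus strand) and chr4:54233710-54233959 (plus strand) for the 2 listed starts of PDGFRA, chr5:150155846-150156095 (minus strand), chr12:88580472-88580721 (minus strand) and chr4:54657707-54657956 (plus strand). Capitals mark matches, on either strand, to 1 of 6 motifs. These were the GC box, spelled GGGCGG, and the CCAAT box, spelled as its name. The TATA box was searched as TATAAA, and the GATA site as AGATAA, with TGATAA also accepted at that site. The T-box motif was searched as GGTGTGA, and the E-box was searched in the form CAGCTG. The deposited gene counts do not tell which PDGFRA start was used.
PDGFRA, first start: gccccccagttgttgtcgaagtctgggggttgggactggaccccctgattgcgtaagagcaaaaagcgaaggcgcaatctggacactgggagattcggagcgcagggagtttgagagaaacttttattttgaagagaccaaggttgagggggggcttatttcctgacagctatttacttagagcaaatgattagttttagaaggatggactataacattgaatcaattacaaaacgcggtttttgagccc
PDGFRA, second start: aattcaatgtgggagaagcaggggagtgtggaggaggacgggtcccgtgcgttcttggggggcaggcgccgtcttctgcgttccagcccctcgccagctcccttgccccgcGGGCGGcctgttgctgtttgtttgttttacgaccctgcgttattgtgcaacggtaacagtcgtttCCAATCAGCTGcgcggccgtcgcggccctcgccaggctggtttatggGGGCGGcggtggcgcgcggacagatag
PDGFRB: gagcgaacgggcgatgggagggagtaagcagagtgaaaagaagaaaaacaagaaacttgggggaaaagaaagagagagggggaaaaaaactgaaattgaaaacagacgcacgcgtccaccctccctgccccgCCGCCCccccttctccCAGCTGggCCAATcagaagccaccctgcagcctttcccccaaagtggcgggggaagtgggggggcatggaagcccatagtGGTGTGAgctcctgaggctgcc
KITLG: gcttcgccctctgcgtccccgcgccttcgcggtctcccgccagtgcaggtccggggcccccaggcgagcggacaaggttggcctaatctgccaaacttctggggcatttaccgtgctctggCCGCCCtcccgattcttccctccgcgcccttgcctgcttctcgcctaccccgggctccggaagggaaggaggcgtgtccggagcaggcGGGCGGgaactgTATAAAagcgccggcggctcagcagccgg
KIT: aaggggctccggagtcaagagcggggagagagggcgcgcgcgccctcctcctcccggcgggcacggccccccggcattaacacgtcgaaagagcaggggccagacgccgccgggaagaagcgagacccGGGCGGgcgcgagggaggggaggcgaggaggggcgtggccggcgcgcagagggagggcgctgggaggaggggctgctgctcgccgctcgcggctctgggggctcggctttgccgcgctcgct
None of the searched motifs lay before the first PDGFRA start, where 46.8% of bases were G or C against a median of 58% over 35116 such windows. The second PDGFRA start and the PDGFRB start each had a CCAAT box and an E-box near each other. At PDGFRA the CCAAT box began 74 and the E-box 69 bases before the start, side by side with no shared base. At PDGFRB the E-box began 102 and the CCAAT box 94 bases before the start. Of all windows, 32.0% held a CCAAT box and 14.0% this E-box. Genes not shown had them too. PDGFD, 1.98-fold lower at day 2 than at day 0, had the E-box 59 bases before its start. PDGFA, 6.20-fold lower, had a CCAAT box 137 bases before 1 of its 4 listed starts. Neither of these windows held both motifs. PDGFRB also had a T-box motif 22 bases before its start, a motif in 2.76% of windows. KITLG had a TATA box 29 bases before its start, found in 10.7% of windows, and 2 GC boxes, found in 42.6%. KIT had 1 GC box in a window of 76.4% G or C, more than 91.9% of windows. No GATA site, present in 14.6% of windows, was in any of these 5 windows. A match is a run of letters and shows no binding.

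The 4 ligand genes took different courses. PDGFA (gene ID 5154, chromosome 7), whose product acts through PDGFRA, measured 26.8, 4.32, 16.6 and 27.6 CPM on days 0, 2, 3 and 4, from 138, 22, 86 and 152 counts. Days 4 and 0 did not differ beyond counting error, at a ratio of 1.03 for day 4 over day 0 (0.814 to 1.31), and day 2 was the low point. PDGFA was 6.20-fold lower at day 2 than at day 0 (3.94 to 10.2), 3.85-fold higher at day 3 than at day 2 (2.39 to 6.46) and 6.40-fold higher at day 4 than at day 2 (4.08 to 10.5). A long noncoding gene that overlaps it, PDGFA-DT, had 0, 2, 5 and 3 counts. The library kit and files do not say whether strand was used, so reads in the overlap could belong to either gene.

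PDGFC (gene ID 56034, chromosome 4) encodes a latent ligand that a protease must cut before it can act on PDGFRA. It measured 1.55, 9.81, 12.6 and 16.7 CPM on days 0, 2, 3 and 4, from 8, 50, 65 and 92 counts. Like PDGFRA it was lowest at day 0 and highest at day 4. It was 6.32-fold higher at day 2 than at day 0 (2.97 to 15.4) and 10.8-fold higher at day 4 than at day 0 (5.25 to 25.7). The single steps from day 2 to 3 and from day 3 to 4 were within counting error, but day 4 was 1.70-fold above day 2 (1.20 to 2.46).

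PDGFB (gene ID 5155, chromosome 22), the ligand of both receptors that draws mural cells to vessels, stayed low at 6.98, 8.04, 3.48 and 6.18 CPM, from 36, 41, 18 and 34 counts. Day 3 was the low library, 2.31-fold below day 2 (1.299 to 4.28), a log2(CPM + 1) difference of -1.01 that only just passed the 2-fold rule. It missed that rule with unscaled totals. PDGFD (gene ID 80310, chromosome 11), the latent ligand of PDGFRB, measured 10.5, 5.30, 6.57 and 8.18 CPM, from 54, 27, 34 and 45 counts. It was 1.98-fold lower at day 2 than at day 0 (1.22 to 3.26), beyond counting error but just under the 2-fold rule, and no later step differed beyond counting error.

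Summed over the 4 ligand genes, PDGF ligand FPKM was 15.9, 9.07, 13.1 and 20.04 on days 0, 2, 3 and 4. PDGFA held 62.6% of that sum on day 0, 16.98% on day 2, 46.1% on day 3 and 50.0% on day 4. PDGFC held 3.26, 35.1, 31.6 and 27.6% on the same days. PDGFC was 0.0521 of PDGFA in FPKM on day 0 (0.0223 to 0.107) and 2.06 of it on day 2 (1.23 to 3.58), so their order turned, and it turned back by day 3, at 0.685 (0.489 to 0.958). Against the receptors, the ligand sum was 4.53 times the receptor sum on day 0 and 0.453, 0.512 and 0.749 times on days 2, 3 and 4. These are ratios of transcripts per length, not of protein.

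**Figure D2:**
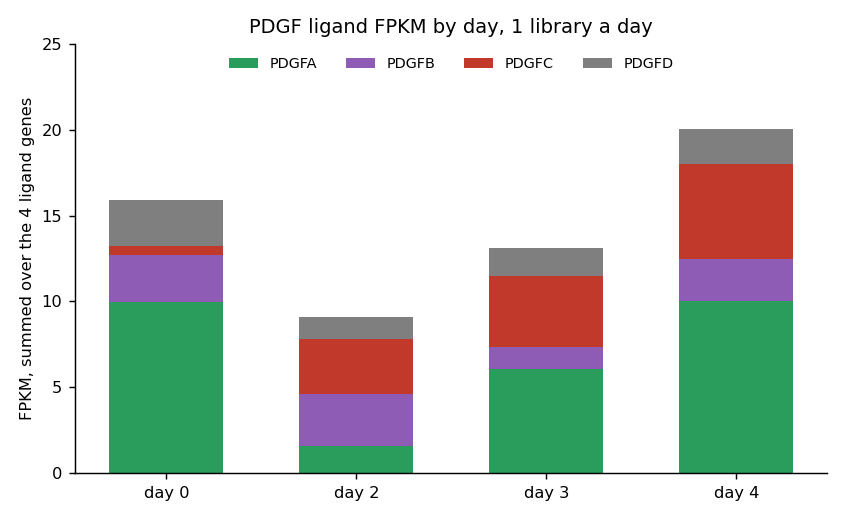
FPKM of the 4 PDGF ligand genes stacked by day, 1 library a day. The total is lowest on day 2, at 9.07, where PDGFA holds 16.98% of it, and highest on day 4, at 20.04, where PDGFA holds 50.0% and PDGFC 27.6%.

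KIT (gene ID 3815, chromosome 4) measured 28.1, 21.4, 34.2 and 18.9 CPM on days 0, 2, 3 and 4, from 145, 109, 177 and 104 counts. Day 3 was the high library and day 4 the low one, and no comparison passed the 2-fold rule. Differences beyond counting error remained: day 2 was 1.32-fold below day 0 (1.02 to 1.70), day 3 was 1.60-fold above day 2 (1.25 to 2.05), and day 4 was 1.81-fold below day 3 (1.41 to 2.33). Day 4 was also 1.49-fold below day 0 (1.15 to 1.93). Whether such moves exceed the spread between cultures cannot be known from 1 library a day.

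KITLG (gene ID 4254, chromosome 12) measured 23.3, 57.7, 103.6 and 116 CPM on days 0, 2, 3 and 4, from 120, 294, 536 and 639 counts. Each day was higher than the one before, though day 4 exceeded day 3 by only 1.12-fold, within counting error (0.998 to 1.26). It was 2.48-fold higher at day 2 than at day 0 (2.00 to 3.09), and 4.99-fold higher at day 4 than at day 0 (4.10 to 6.12). Between days 4 and 2 it was 2.01-fold higher (1.75 to 2.32), with a log2(CPM + 1) difference of 0.997 that just missed the rule. In FPKM the ligand gene was 0.784 of its receptor gene on day 0 (0.611 to 1.01), 2.56 on day 2 (2.05 to 3.22), 2.87 on day 3 (2.42 to 3.42) and 5.82 on day 4 (4.73 to 7.24).

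**Figure D3:**
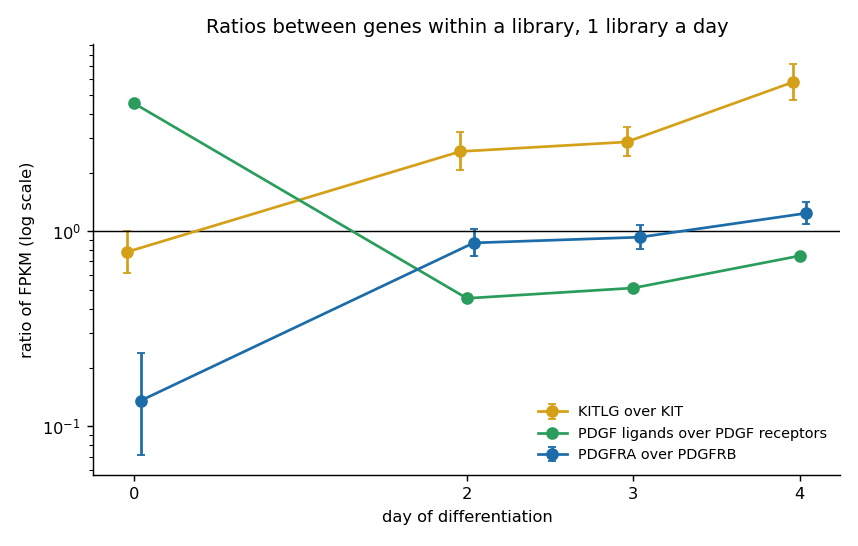
Ratios of FPKM (log axis) within each library against the day, with 95% intervals for ratios of single genes and none for the ratio of sums. KITLG over KIT goes above 1 from day 2 and reaches 5.82 on day 4, the PDGF ligand sum over the receptor sum drops under 1 at day 2, and PDGFRA over PDGFRB passes 1 on day 4.

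Under VEGF and bFGF, fewer of these genes passed the rule than at day 2 against day 0. The shares of all genes were smaller too, next to 12.9% higher and 8.81% lower at day 2 against day 0. At day 3 against day 2, PDGFA was the 1 gene to pass the 2-fold rule upward, against 5.82% of 15286 genes, and PDGFB the 1 gene to pass it downward, against 3.51%. None of the 8 reached 4-fold, against 1.32% of all genes upward and 0.406% downward. At day 4 against day 3, none of the 8 passed the rule in either direction, where 2.96% of 15367 genes were higher and 4.24% lower, with 0.377 and 0.228% at 4-fold. Over the whole step, day 4 against day 2, PDGFA was the 1 gene at least 2-fold and also at least 4-fold higher, against 8.17 and 2.32% of 15406 genes, and none was lower, against 7.6% at 2-fold and 1.4% at 4-fold. At day 4 against day 0, PDGFRA, PDGFRB, PDGFC and KITLG passed upward, 4 of 8 genes against 16.1% of 15652 genes. Of these, 3 (PDGFRA, PDGFC and KITLG) reached 4-fold, against 6.27%. None of the 8 was lower, against 11.9% at 2-fold and 3.44% at 4-fold. The comparisons share libraries: days 2 and 4 are both set against day 0, and day 2 and day 4 each enter others.

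**Figure D4:**
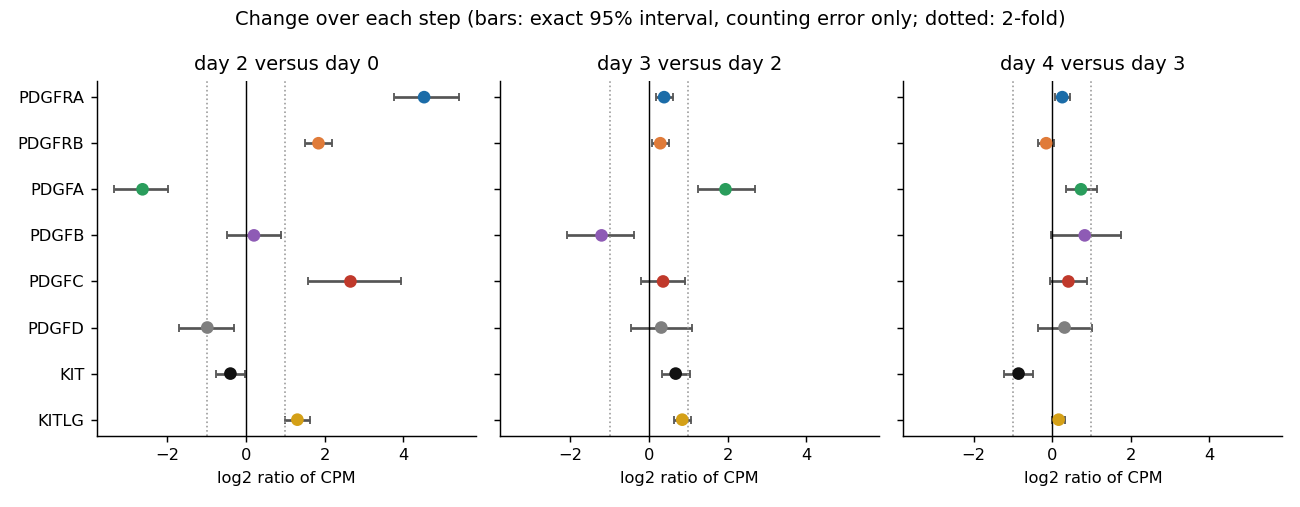
Log2 ratio of CPM for each gene over each step, with exact 95% counting intervals and dotted lines at 2-fold. PDGFRA lies furthest to the right at day 2 against day 0, PDGFA lies to the left there and to the right at day 3 against day 2, and at day 4 against day 3 all 8 points lie between the dotted lines.

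The order of the genes by FPKM changed over the course. On day 0 PDGFA led at 9.98 FPKM, followed by KIT at 5.52 and KITLG at 4.33, which did not differ from each other beyond counting error. PDGFRB, PDGFB and PDGFD followed at 3.10, 2.75 and 2.68 FPKM with no difference between neighbours, and PDGFC and PDGFRA were last at 0.52 and 0.42 FPKM. On day 2 PDGFRB, KITLG and PDGFRA led at 10.7, 10.3 and 9.32 FPKM, not apart from one another. KIT followed at 4.02 FPKM, and PDGFRA was ahead of it beyond counting error (2.32-fold, 1.86 to 2.91). On day 3 KITLG led at 18.7 FPKM, ahead of PDGFRB beyond counting error (1.42-fold, 1.24 to 1.62). On day 4 the order was KITLG at 21.1, PDGFRA at 14.8, PDGFRB at 12.0, PDGFA at 10.03, PDGFC at 5.53, KIT at 3.63, PDGFB at 2.43 and PDGFD at 2.05 FPKM. There, PDGFRB and PDGFA, and PDGFB and PDGFD, were the neighbours not apart.

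PDGFRA, KIT and the VEGF receptor gene KDR follow one another on chromosome 4, and PDGFRB follows CSF1R, the receptor gene for colony-stimulating factor 1, on chromosome 5. KDR measured 209, 354, 868 and 942 CPM on days 0, 2, 3 and 4, with its larger part of the increase after day 2: 2.66-fold at day 4 against day 2 (2.52 to 2.81) and 1.69-fold at day 2 against day 0 (1.57 to 1.82). The 3 neighbours thus had unlike courses, with log2(CPM + 1) differences between days 4 and 0 of 4.74 for PDGFRA, -0.55 for KIT and 2.16 for KDR. On the PDGFRA side, CHIC2 differed by 0.86 and GSX2 had at most 1 count. On the KDR side, TMEM165 differed by 0.21, and SRD5A3 had 17.8 CPM on both days. Around PDGFRB, which differed by 1.92, HMGXB3 differed by 0.60. CSF1R differed by 0.59 on 2 to 6 counts a library. The homeobox gene CDX1 differed by 1.49 and had 0 counts at day 0 and 1.35 to 3.53 CPM later, and SLC6A7 had at most 1 count.

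**Figure D5:**
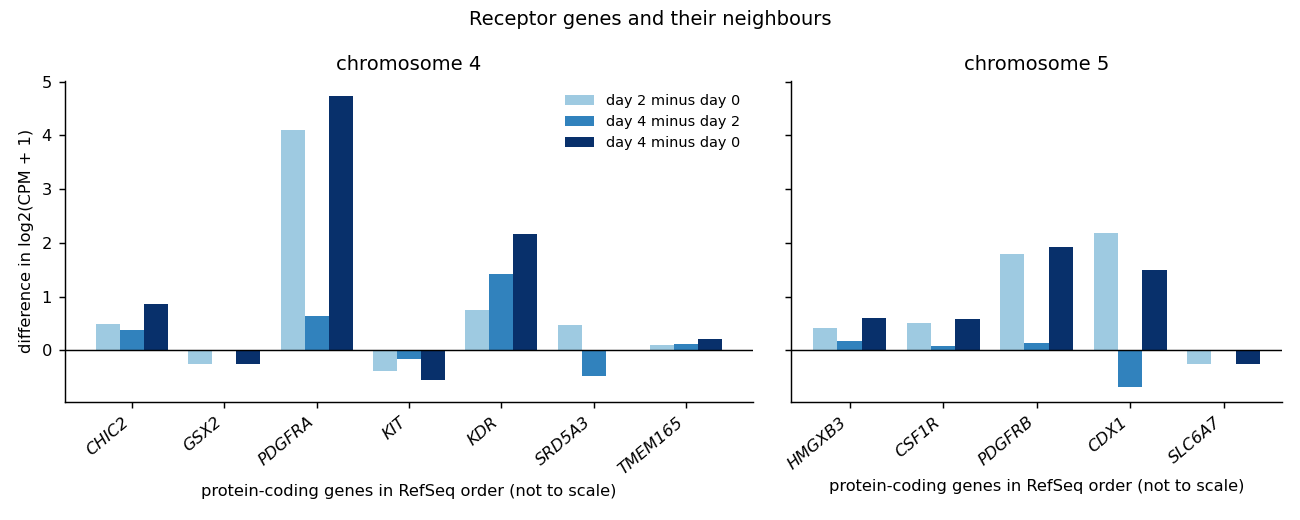
Differences in log2(CPM + 1), day 2 minus day 0, day 4 minus day 2 and day 4 minus day 0, for the receptor genes and 2 protein-coding neighbours on each side, in RefSeq order and not to scale. PDGFRA reaches 4.74 and KDR 2.16 between days 4 and 0 while KIT, between them, is at -0.55, and PDGFRB at 1.92 stands beside CSF1R at 0.59.

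By a fixed measure, the distance between log2(CPM + 1) profiles centred on their own mean, 13153 other genes of at least 5 CPM in any library were set against each of the 5 genes that spanned 2 or more. Nearest to PDGFRA were FILIP1L (distance 0.21), SEZ6L (0.39) and BAMBI (0.41), and FILIP1L measured 0, 13.5, 19.3 and 21.1 CPM. Nearest to PDGFRB were IL10RB (0.083), DZIP1L (0.10) and RRAS (0.11). Nearest to PDGFC were VAMP7 (0.066), KRT19 (0.097) and PARVA (0.11), and nearest to KITLG were PPP1R15A (0.089), FAM43A (0.090) and WIPI1 (0.11). PDGFA had STXBP6 (0.34), NPR1 (0.34) and FOXJ1 (0.36) nearest, and NPR1 measured 17.8, 2.35, 14.3 and 19.1 CPM with the same low point at day 2. Each distance rests on 4 libraries, and other settings were not tried for it. The added 1 CPM shrinks the differences of low genes, so a small distance is not an equal fold. Between days 0 and 4, PDGFC went from 1.55 to 16.7 CPM and VAMP7 from 35.1 to 240 CPM.

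Genes that cut or release these ligands were mixed. Of 9 such genes, 5 passed the 2-fold rule upward and 2 downward at day 2 against day 0, where all genes had 12.9 and 8.81%. Their median log2 difference was 1.11, against -0.000898 over all genes. FURIN, the convertase that processes PDGF-A and PDGF-B precursors, measured 34.5, 153, 214 and 214 CPM and was 6.21-fold higher at day 4 than at day 0 (5.30 to 7.31). PLAT, tissue plasminogen activator, which activates PDGF-C, measured 10.5, 6.08, 50.6 and 100.3 CPM, and was 16.5-fold higher at day 4 than at day 2 (11.5 to 24.5). PLAU, the plasminogen activator that activates PDGF-D, measured 22.7, 51.2, 35.4 and 30.9 CPM. At day 4 against day 2 the set had 2 genes higher and 2 lower, where all genes had 8.17 and 7.6%, with a median of -0.09 against 0.02 over all genes. Among binding partners, NRP1, a coreceptor of VEGF and PDGF, measured 3.10, 67.7, 142 and 148 CPM. SPARC, a matrix protein that binds PDGF-B, measured 307, 1158, 1030 and 1045 CPM. At day 2 against day 0, NRP1 was 21.8-fold higher (13.2 to 38.6) and SPARC 3.78-fold higher (3.57 to 3.99), while LRP1, the other gene of this list of 3, did not pass the rule.

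Of 24 signalling genes next to the receptors (adaptors, kinases and effectors), 4 passed the 2-fold rule upward and 1 downward at day 2 against day 0, where all genes had 12.9 and 8.81%, and the median log2 difference was 0.27. The kinase gene SRC measured 33.9, 139, 178 and 191 CPM, 5.63-fold higher at day 4 than at day 0 (4.80 to 6.65). GAB2, a docking protein used by KIT, measured 16.7, 62.6, 86.2 and 67.4 CPM, 4.04-fold higher (3.19 to 5.17). At day 4 against day 0, 5 of the 24 were higher and 2 lower, where all genes had 16.1 and 11.9%, with a median of 0.16 against 0.03 over all genes. Of 13 inhibitors, 12 reached the minimum of 1 CPM. In the same comparison, with the same shares of all genes, 1 of the 12 was higher and 3 lower, with a median of -0.20. SOCS1, a feedback inhibitor of cytokine receptors, was 14.2-fold lower (4.53 to 71.9), with 3 counts at day 4, and DOK1, an adaptor that restrains tyrosine kinases, was 5.71-fold higher (2.99 to 12.0).

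Other receptors of the family were scarce. CSF1R stayed at 0.388 to 1.16 CPM, and FLT3 and its ligand gene FLT3LG were under 1 CPM in every library. The ligand genes of CSF1R differed: CSF1 measured 4.65, 10.2, 18.0 and 18.7 CPM, 4.02-fold higher at day 4 than at day 0 (2.56 to 6.56), and IL34 measured 106, 68.9, 24.5 and 8.91 CPM, 11.9-fold lower (8.90 to 16.3). FLT1, a VEGF receptor gene, measured 231, 162, 840 and 1091 CPM, 6.73-fold higher at day 4 than at day 2 (6.26 to 7.25).

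Marker genes of cell types known to carry these receptors took several courses. Lateral plate and cardiac mesoderm markers summed to 4.27, 652, 886 and 1057 CPM on days 0, 2, 3 and 4, and all 9 passed the 2-fold rule upward at day 2 against day 0, where 12.9% of all genes did. Only HAND1 of the 9 reached 1 CPM at day 0, so the others met the minimum through day 2 alone. HAND2, MESP1 and NKX2-5 had no count at day 0, and on day 2 the 9 measured 4.12 to 289 CPM. Here and in the lists below, a gene under 1 CPM in the earlier library is counted only if it is higher in the later one. Such counts therefore lean upward, and the shares of all genes give them no test. At day 4 against day 2, 3 of the 9 were higher and 1 lower, where all genes had 8.17 and 7.6%. The lower one was MESP1, at 9.22 CPM on day 2 and 0.182 CPM, or 1 count, on day 4. HAND1 measured 594 CPM at day 4 and 1.75 at day 0, and BMP4 174 CPM at day 4 and 0.970 at day 0. Endoderm markers summed to 6.98, 154, 265 and 316 CPM, with 6 of the 7 that reached 1 CPM higher and 1 lower at day 2 against day 0, next to the same 12.9% and 8.81% of all genes. Of the 6 higher ones, CXCR4 alone reached 1 CPM at day 0. SOX17 measured 90.4 CPM on day 2. APOA1 had 79.6 CPM at day 4 and no count at day 0. Paraxial mesoderm markers summed to 1.75, 14.5, 17.8 and 9.81 CPM over the 6 genes analysed. Both of those that reached 1 CPM at day 2 or day 0, TBX6 and FOXC1, were higher at day 2, where 12.9% of all genes were. Both were under 1 CPM at day 0, so they met the minimum through day 2 alone. The other genes analysed stayed under 1 CPM on both days. TBX6 was 6.07-fold higher (2.33 to 20.04), and FOXC1 had 39 counts at day 2 and 0 at day 0. At day 4 against day 2, 2 of 4 were higher and 2 lower, where all genes had 8.17 and 7.6%. TBX6 and FOXC1 were the lower ones. The higher ones were PAX3, with 2 counts at day 2 and 12 at day 4, and FOXC2, with 0 and 13. The part of each cell type in the PDGFRA and PDGFRB values was not tested.

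Mural cell markers summed to 526, 1395, 2109 and 2441 CPM, and at day 4 against day 0, 8 of the 10 passed the rule upward and 1 downward, where all genes had 16.1 and 11.9%. At day 2 against day 0, 4 of the 9 that reached 1 CPM were higher and none lower, where all genes had 12.9 and 8.81%. At day 4 against day 2, 5 of the 10 were higher and 1 lower, where all genes had 8.17 and 7.6%. RGS5 measured 82.2, 274, 1214 and 1666 CPM and ACTA2, smooth muscle actin, 4.85, 8.83, 26.3 and 52.3 CPM, both with most of their increase after day 2. MCAM, TAGLN and ANPEP had theirs before it: MCAM measured 19.0, 138, 164 and 154 CPM, TAGLN 110.7, 665, 306 and 314 CPM, and ANPEP 1.55, 31.0, 44.8 and 16.7 CPM. PDGFRB had a ratio of 1.10 for day 4 over day 2 (0.943 to 1.28). Haemato-endothelial markers summed to 47.1, 129, 419 and 1010 CPM, with 13 of 14 passing the rule upward at day 4 against day 2, where 8.17% of all genes did. FLI1 measured 121 CPM at day 4 and 4.90 at day 2, and GATA2 136 CPM at day 4 and 23.9 at day 2. Over that interval KIT had a ratio of 0.884 (0.669 to 1.17). Blood cell markers summed to 30.3, 28.1, 25.5 and 57.3 CPM over 10 genes. At day 4 against day 3, 6 of the 8 that reached 1 CPM were higher and none lower, where all genes had 2.96 and 4.24%. At day 4 against day 2, 5 of 8 were higher and none lower, where all genes had 8.17 and 7.6%. At day 4 against day 0, 5 of 8 were higher and 1 lower (all genes 16.1 and 11.9%). At day 2 against day 0, 2 of 6 were higher and 2 lower (12.9 and 8.81%). At day 3 against day 2, none of 5 was higher and 1 was lower (5.82 and 3.51%). GATA1 had no count before day 4 and RHAG measured 13.5 CPM on day 4. The part of mural, endothelial and blood cells in the PDGFRB, PDGFB and KIT values was not tested.

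Germ cell markers summed to 27.5, 199, 249 and 124 CPM, with PRDM1 at 3.49, 103, 109 and 50.9 CPM and NANOS3 at 0, 5.30, 6.96 and 7.27 CPM. DDX4, a defining germ cell gene, had no count before day 4, and DAZL had none after day 0. Of the mast cell and melanocyte markers, 4 of 8 were analysed, PMEL at 37.4, 14.1, 5.99 and 4.36 CPM and MITF at 3.30, 6.28, 6.38 and 14.9 CPM. The neural and oligodendrocyte progenitor markers analysed, 3 of 6, summed to at most 7.26 CPM, with PAX6 at most 4.12 and SOX10 at most 3.14 CPM. The part of these cell types in the KIT and PDGFRA values was not tested.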

How the data were processed

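RNA of H1 cells on days 0, 2, 3 and 4 was sequenced as 1 library a day, from total RNA taken with Trizol and made into libraries with an Illumina TruSeq kit, per the labels' protocols. Reads were processed with tools that, by the submitters' processing notes, include BWA, Bowtie and RSEM with build hg19, and the series' design text also mentions TopHat with Cufflinks. The sources used here give neither their versions nor their roles. Per the file headers, the authors deposited an expected count for each Entrez gene ID. Per the file headers, the authors also deposited FPKM values, which correct for depth and the listed transcript length.

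Expected counts were rounded to whole numbers, a gene missing from a file was taken as 0 there, and CPM used TMM factors (0.981 to 1.02) from edgeR 4.0.16 in R 4.3.3. Gene symbols were looked up in RefSeq (GRCh38.p14), where 19273 of 19390 IDs matched. Levels between genes were compared on the deposited FPKM only. CPM have exact 95% Poisson intervals and ratios exact conditional binomial ones. The 4 libraries allow no test of a difference between days. The size rule was tested on simulated data. Other steps used scipy 1.17.1, numpy 2.4.6 and pandas 2.3.3 under Python 3.11.15, and figures used matplotlib 3.10.9.

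The 8 genes, the gene lists and the size rule were chosen with earlier results of these data known. Named genes were the 8, the 2 list members with the largest difference between days 4 and 0, 2 protein-coding neighbours on each side of the receptor genes and the 3 nearest patterns. Others were named after their values were seen: LRP1, PLAU, TBX6, PAX3, CXCR4, MCAM, TAGLN, ANPEP, FLT3, FLT3LG, GATA1, HAND2, MESP1, NKX2-5, DDX4 and DAZL. For 1 gene that the rule names, no result is reported here. The list gene TDGF1 was matched by synonym and 9 list genes were not analysed here. Alternatives were pseudocounts of 0.1 and 5 CPM, median-of-ratios factors from DESeq2 1.42.0, unscaled totals, no minimum, a minimum of 5 CPM, and the deposited FPKM.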

Additional observations from a re-analysis of the deposited data

How the results depend on the processing

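No paired analysis was possible because each day is 1 library, and for the same reason no library could be left out. Of the recomputed counts of genes passing the rule, 16 moved by over 1.5 times, all of them given here. No log2 difference of a called gene turned its sign, and of 200 recomputed differences 189 stayed inside their counting interval, with the 11 others under a pseudocount of 5 CPM or the deposited FPKM. Median-of-ratios factors moved no count. Dropping the minimum or raising it to 5 CPM could move none, since all 8 genes reach 5 CPM in at least 1 library of each comparison. With a pseudocount of 5 CPM, which pulls low genes together, the 4-fold counts at day 2 against day 0 became 1 higher and 0 lower (1 in all), and 0 at day 4 against day 2. On FPKM the 4-fold count of higher genes at day 2 against day 0 was 1. For day 3 against day 2, the 2-fold count of lower genes was 0 (1 in all) with a pseudocount of 5 CPM, with unscaled totals and on FPKM. For day 4 against day 2, the 2-fold count of higher genes was 2 (2 in all) with a pseudocount of 0.1 CPM and with unscaled totals. Unscaled totals kept the order of days in all 8 genes, and rescaling FPKM to TPM, which by construction cannot reorder genes, kept the gene order on all 4 days. PDGFC at day 0, with 8 counts, and PDGFRA at day 0, with 14, set the width of their intervals.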

Other observations

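The deposited transcript length, a mean over a gene's listed transcripts, gives a view of isoform assignment. It also enters the FPKM values and the intervals of FPKM ratios above. PDGFRA, PDGFRB, PDGFC and KIT had the same listed length in all 4 libraries, at 6574, 5718, 3018 and 5178 bp. KITLG stood at 5460 bp on days 0, 3 and 4 and at 5446.4 bp on day 2. PDGFA stood at 2740 bp on days 0, 2 and 3 and at 2753.52 bp on day 4. PDGFD stood at 3979 bp on days 0 and 4 and at 3997 bp on days 2 and 3, on 27 to 54 counts. PDGFB moved most, at 2601, 2582, 2691 and 2544 bp, on 18 to 41 counts. No isoform counts were used, so the shares behind these lengths are not given.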
